A study of Mus musculus with 48 samples.

Results

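The 4 Hox gene clusters of the mouse genome held 14 of the 187695 loci at which methylated DNA was captured from the amygdala. A locus is an interval in which capture peaks had been called and merged over libraries, and it was counted as a member when it overlapped the window around the Hoxa cluster on chromosome 6, the Hoxb cluster on chromosome 11, the Hoxc cluster on chromosome 15 or the Hoxd cluster on chromosome 2 (build GRCm38). The windows contain 39 Hox genes. Hoxb had 10 loci, Hoxa had 3, Hoxd had 1, and the table held no locus in Hoxc. The choice used position and no measured value.

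The samples were amygdala DNA of 48 adult male mice at 4 months of age, 8 in each of 6 groups. The mice were Tph2+/+, Tph2+/- or Tph2-/- on a C57BL/6 background (C57BL/6N in the methods of the study), bred from heterozygous parents. The mutant allele was a constitutive null of Tph2, which encodes the enzyme that starts serotonin synthesis in neurons. Mice of each genotype had either been separated from the dam (maternal separation, MS) on postnatal days 2 to 15, 3 h daily, or had been reared in the standard way as controls (C). Whole litters were assigned to a condition and the labels do not tie mice to litters, so mice of a group may be littermates. All had been housed singly after weaning and had gone through behavioural tests before tissue was taken. Methylation was read by MBD-seq, in which a methyl-CpG-binding domain protein pulls down methylated fragments for sequencing, so a count rises with the methylation, the number of CpG dinucleotides and the number of copies of a sequence. The material was bulk tissue of both hemispheres, in which methylation in fewer cells and weaker methylation in every cell cannot be told apart. Counts of captured DNA measure neither Tph2 expression nor marker genes of the amygdala, so genotype and tissue were taken from the labels.

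Hox genes encode homeodomain transcription factors that give cells along the head-to-tail axis of the embryo their identity. The genes of a cluster lie in the order in which they are used along the axis, from the paralogue 1 genes toward the head to the paralogue 13 genes toward the tail, and retinoic acid opens them in that order in the hindbrain and spinal cord. In the forebrain, to which the amygdala belongs, they are known to stay silent under Polycomb proteins, which coat the clusters and their dense, mostly unmethylated CpG islands. The clusters also encode microRNAs of the miR-10 and miR-196 families.

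Most of the captured loci lay outside the Hox genes. Of the 10 Hoxb loci, 9 stood in the 74.01 kb without Hox genes between Hoxb13 and Hoxb9, from chr11:96208168-96208931 (Hoxb locus 1) to chr11:96248152-96249521 (Hoxb locus 9). Hoxb locus 9 covered Gm11539, annotated as a processed pseudogene, and the other 8 overlapped no annotated gene. Hoxa locus 2, at chr6:52147011-52147963, and Hoxa locus 1 overlapped no Hox gene, and locus 1 reached out of the window. Only 3 loci touched a Hox gene, and none of these overlapped coding sequence. Hoxa locus 3 (chr6:52222784-52223567) overlapped the 3′ untranslated region of Hoxa9, and Hoxb locus 10 (chr11:96305571-96306333) that of Hoxb5 together with the antisense gene Hoxb5os. Hoxd locus 1 (chr2:74716319-74717013) lay in an intron shared by long transcripts of Hoxd3 and Hoxd4.

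The sequences below are the stretches richest in CpG of the locus with the highest level in each cluster and of loci with the smallest p-values in the comparisons, on the + strand of GRCm38, with each CpG in capitals. Hoxa locus 1 and Hoxb locus 10 are named only. Hoxb locus 9 (chr11:96248595-96248894) overlaps the pseudogene and holds 17 CpG, Hoxa locus 2 (chr6:52147145-52147444) holds 6, and Hoxd locus 1 (chr2:74716319-74716618) holds 7.
Hoxb locus 9: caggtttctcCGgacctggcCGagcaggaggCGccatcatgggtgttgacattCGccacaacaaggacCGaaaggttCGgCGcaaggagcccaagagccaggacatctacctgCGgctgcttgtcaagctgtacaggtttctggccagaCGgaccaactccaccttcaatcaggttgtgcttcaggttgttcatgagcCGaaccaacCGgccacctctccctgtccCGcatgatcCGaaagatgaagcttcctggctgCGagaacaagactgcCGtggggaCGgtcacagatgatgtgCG
Hoxa locus 2: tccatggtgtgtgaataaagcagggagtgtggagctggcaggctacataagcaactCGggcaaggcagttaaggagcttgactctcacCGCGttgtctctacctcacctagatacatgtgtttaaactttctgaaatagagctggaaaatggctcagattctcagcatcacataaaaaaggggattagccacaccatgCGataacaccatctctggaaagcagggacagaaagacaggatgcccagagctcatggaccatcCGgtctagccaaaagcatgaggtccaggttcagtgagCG
Hoxd locus 1: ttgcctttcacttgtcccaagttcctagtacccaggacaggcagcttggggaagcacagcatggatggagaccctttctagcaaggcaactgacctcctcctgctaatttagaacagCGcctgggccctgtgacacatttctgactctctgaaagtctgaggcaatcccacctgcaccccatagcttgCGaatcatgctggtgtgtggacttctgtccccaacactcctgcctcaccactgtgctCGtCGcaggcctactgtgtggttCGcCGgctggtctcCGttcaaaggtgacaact

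The remaining loci shown are Hoxb locus 2 (chr11:96212397-96212696, 11 CpG, several of them inside a run of CA repeats), Hoxb locus 6 (chr11:96231113-96231412, 9 CpG) and Hoxb locus 8 (chr11:96245378-96245677). Hoxb locus 8 is mostly a TG repeat with 2 CpG, and repeat masking covered 84.7% of the whole locus.
Hoxb locus 2: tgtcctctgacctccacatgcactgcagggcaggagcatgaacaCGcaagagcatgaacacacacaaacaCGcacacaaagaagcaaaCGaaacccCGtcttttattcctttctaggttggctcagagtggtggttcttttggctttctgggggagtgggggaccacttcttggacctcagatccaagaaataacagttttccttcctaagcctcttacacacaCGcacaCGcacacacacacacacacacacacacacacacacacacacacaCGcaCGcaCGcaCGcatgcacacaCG
Hoxb locus 6: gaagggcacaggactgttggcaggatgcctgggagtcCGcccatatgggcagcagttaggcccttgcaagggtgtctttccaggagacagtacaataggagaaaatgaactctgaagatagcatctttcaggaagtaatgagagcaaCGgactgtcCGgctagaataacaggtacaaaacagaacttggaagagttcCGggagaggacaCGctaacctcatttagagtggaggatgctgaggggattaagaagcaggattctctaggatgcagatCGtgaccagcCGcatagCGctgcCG
Hoxb locus 8: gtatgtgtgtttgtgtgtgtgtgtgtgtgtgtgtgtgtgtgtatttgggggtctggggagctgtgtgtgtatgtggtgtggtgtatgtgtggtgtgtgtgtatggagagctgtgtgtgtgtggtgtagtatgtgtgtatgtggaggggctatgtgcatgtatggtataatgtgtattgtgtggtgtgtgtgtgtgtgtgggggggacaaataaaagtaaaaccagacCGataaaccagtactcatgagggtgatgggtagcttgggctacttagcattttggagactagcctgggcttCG

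For contrast, the 250 bases before the start of Hoxa13, the Hox promoter with the most CpG in the RefSeq table (GRCm38.p6, chr6:52260881-52261130, - strand), hold 35 CpG, and no locus was called within 19296 bp of that promoter.
Hoxa13 promoter: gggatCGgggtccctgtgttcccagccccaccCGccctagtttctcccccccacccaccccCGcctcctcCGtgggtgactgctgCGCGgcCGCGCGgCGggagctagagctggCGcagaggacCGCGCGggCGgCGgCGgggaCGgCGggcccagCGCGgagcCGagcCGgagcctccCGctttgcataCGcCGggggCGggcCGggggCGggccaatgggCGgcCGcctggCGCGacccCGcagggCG

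The Hox clusters were rich in CpG and poor in captured loci. The 4 windows together had 2.24 CpG per 100 bp against 0.826 in the whole genome, yet 2.30 loci per 100 kb against 7.09. Of their 13663 CpG, 224 (1.64%) lay in a locus, against 18.4% of the CpG of the genome. The share was 1.08% in Hoxa, 4.57% in Hoxb and 0.206% in Hoxd, and in Hoxc none of 2773 CpG lay in a locus. A locus exists in the table only where peaks had been called, so a stretch without one was not shown to be free of methylation.

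**Figure D1:**
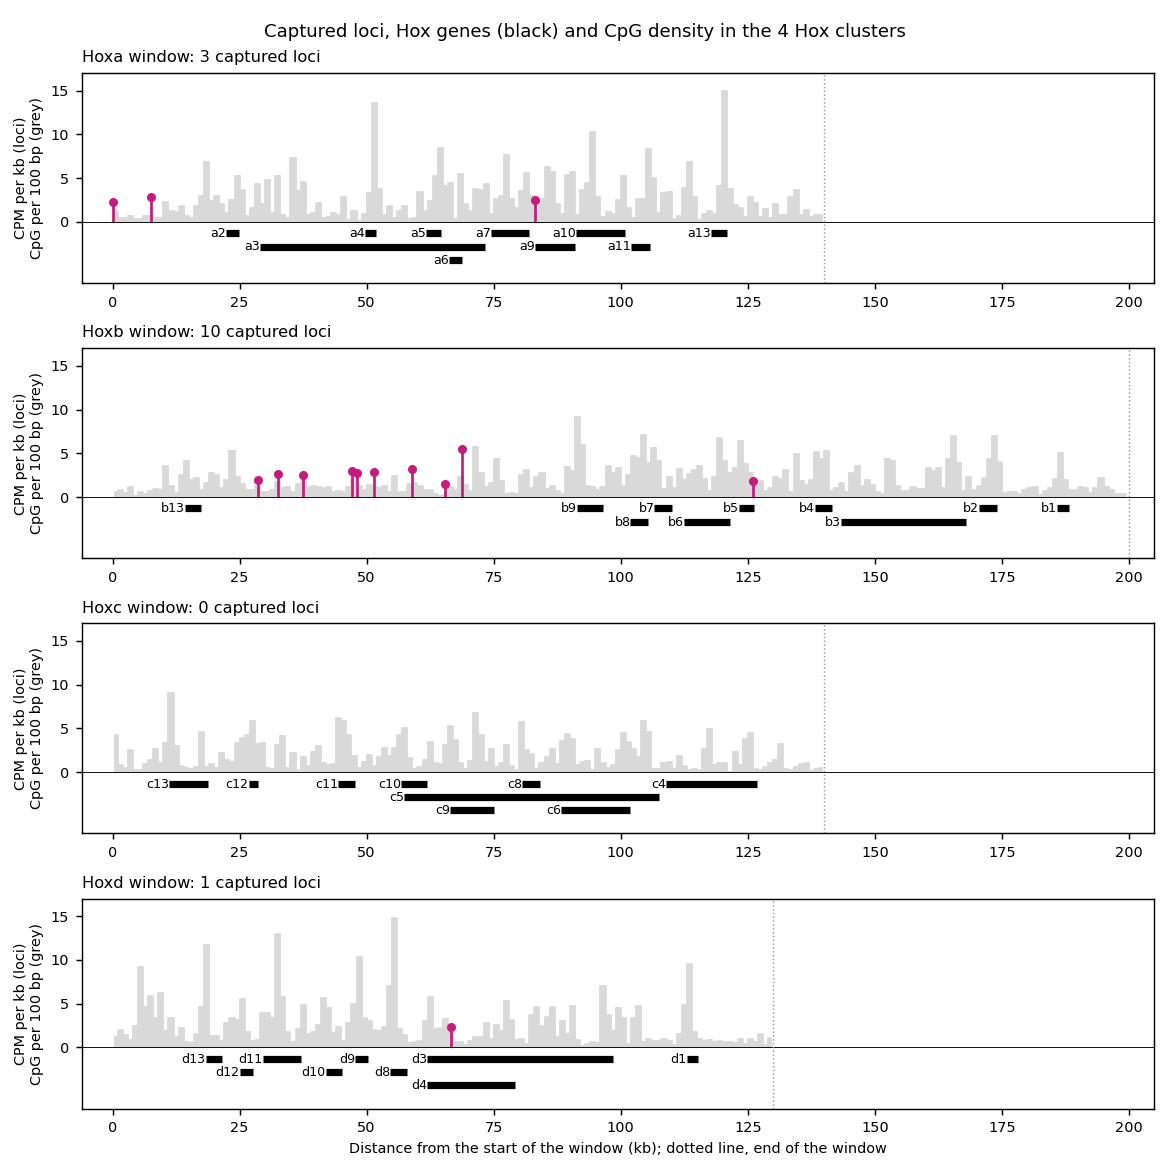
Map of the 4 Hox windows. The x axis is the distance from the start of the window in kb, black bars are the Hox genes reported here, grey columns are CpG per 100 bp in 1-kb bins, and each pin is a captured locus at its mean level in CPM per kb over 48 libraries. In Hoxb, 9 of the 10 pins stand between Hoxb13 and Hoxb9, and the Hoxc window has none.

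Stretches dense in CpG held few loci in the Hox windows. Of all 10-kb bins with 2 or more CpG per 100 bp, 68.7% (4470 of 6508) held a locus, against 7.69% (3 of 39) in the Hox windows. In bins with 0.5 to 1 CpG per 100 bp the shares were 44.1% of all bins and 2 of 6 Hox bins. Over all densities, 45.01% of the bins of the genome and 14.8% (9 of 61) of the Hox bins held a locus. Bins of 1 cluster are neighbours and not independent, so these shares are given with no test.

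**Figure D2:**
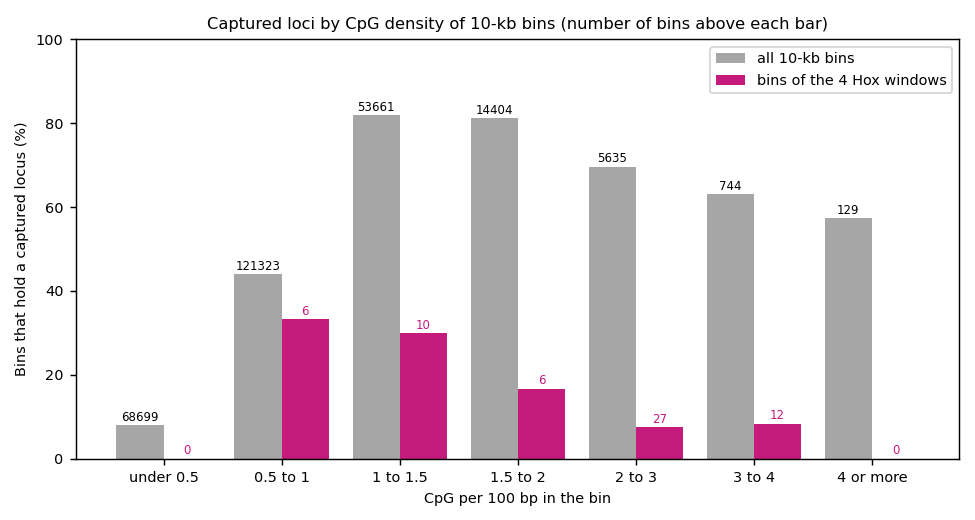
Share of 10-kb bins that hold a captured locus (y axis, %) by the CpG density of the bin (x axis, CpG per 100 bp), for all bins (grey) and for bins of the 4 Hox windows (pink), with the number of bins above each bar. In bins of 2 to 3 CpG per 100 bp the share was 69.7% of all bins and 7.41% of 27 Hox bins.

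Each cluster contained a long stretch without a locus. The longest spanned the whole of Hoxc, at chr15:102895547-103076087, 180.5 kb with all 9 Hoxc genes, and only 0.317% of the gaps between neighbouring loci in the genome were longer. In Hoxb a gap of 83.8 kb held Hoxb4, Hoxb3, Hoxb2 and Hoxb1. In Hoxd a gap of 76.3 kb held the 6 genes from Hoxd13 to Hoxd8 whole, and in Hoxa a gap of 74.8 kb held Hoxa2 to Hoxa7 whole. The median gap over the genome was 4.56 kb and the 95th percentile 55.3 kb.

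Transcription starts were far from captured loci. The 39 Hox starts were 0.930 to 85.5 kb from the nearest locus with a median of 19.5 kb, against a median of 4.76 kb for 21938 protein-coding genes. The nearest was Hoxa7, with Hoxa locus 3 lying 930 bp before its start, followed by Hoxb5 at 2235 bp, Hoxd4 at 4390 bp and Hoxd3 at 4392 bp. No Hox start lay within 250 bp of a locus, against 8.67% of all protein-coding starts. A locus overlapped 4 of 39 Hox genes (10.3%) and 67.4% of all protein-coding genes. These genes were not matched for length, and a longer gene has more room for a locus.

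The RefSeq promoter table, 250 bases before to 50 after a start, held 24 promoters of 22 Hox genes, and none of them overlapped a locus. They contained 1.33 to 15.0 CpG per 100 bp with a median of 4.83, against a median of 2.33 over all 32851 promoters, of which 10.5% overlapped a locus. Among the 11378 promoters at or above the Hox median in CpG, 2.72% overlapped a locus. No microRNA gene of the clusters overlapped a locus. Loci covered 7.71% of the genome and no share over all microRNA genes is given here, so this is a description only. Mir196b in Hoxa lay 6.51 kb away, Mir10b in Hoxd 9.06 kb, Mir10a in Hoxb 10.8 kb, Mir196a-1 in Hoxb 15.6 kb and Mir196a-2 in Hoxc 77.8 kb.

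In median CpG density and median level the captured loci of the clusters were near all loci, but single loci spread widely in level. Levels are CPM, counts scaled to the library total after TMM normalisation, and they were divided by the length of the locus in kb where loci are compared. Mean counts were 12.3 to 79.8 per locus and library, and the libraries had totals of 7.72 to 14.1 Mcounts. The median level of the 14 loci was 2.55 CPM per kb against 2.71 over all loci, and their median CpG density was 1.73 against 1.82 per 100 bp. Of the 14, 8 lay below the median level of all loci, and 9 lay below the median of loci of like CpG density.

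Hoxb locus 9, over the pseudogene Gm11539, had the highest level of all members at 5.47 CPM per kb, the 95.02th percentile of all loci and the 99.2th percentile among loci with 2 to 2.25 CpG per 100 bp. A processed pseudogene is a copy of a spliced transcript, and 78.3% of the 50-base stretches of this locus, the read length, occurred once in the genome, against 82.9 to 100% in the other 13. Reads from copies elsewhere could therefore have been counted at this locus, and how reads with several matches were treated is not given in the sources used here. The share of 82.9% was that of Hoxb locus 8, the member with the lowest level. The part of copies in the levels was not tested. Next in Hoxb were locus 7 at 3.24 and locus 4 at 2.97 CPM per kb. The lowest was Hoxb locus 8, the TG repeat, at 1.46 CPM per kb, the 0.0341th percentile of all loci. In Hoxa the order was locus 2 at 2.89, locus 3 at 2.48 and locus 1 at 2.25 CPM per kb, and Hoxd locus 1 had 2.27. Hoxa locus 3, beside Hoxa9 and Hoxa7, had the densest CpG of the members at 2.55 per 100 bp, and its level was at the 13.01th percentile of loci with 2.5 to 2.75 CpG per 100 bp. Hoxb locus 10 at Hoxb5 was also low, at 1.86 CPM per kb and the 1.49th percentile of all loci.

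**Figure D3:**
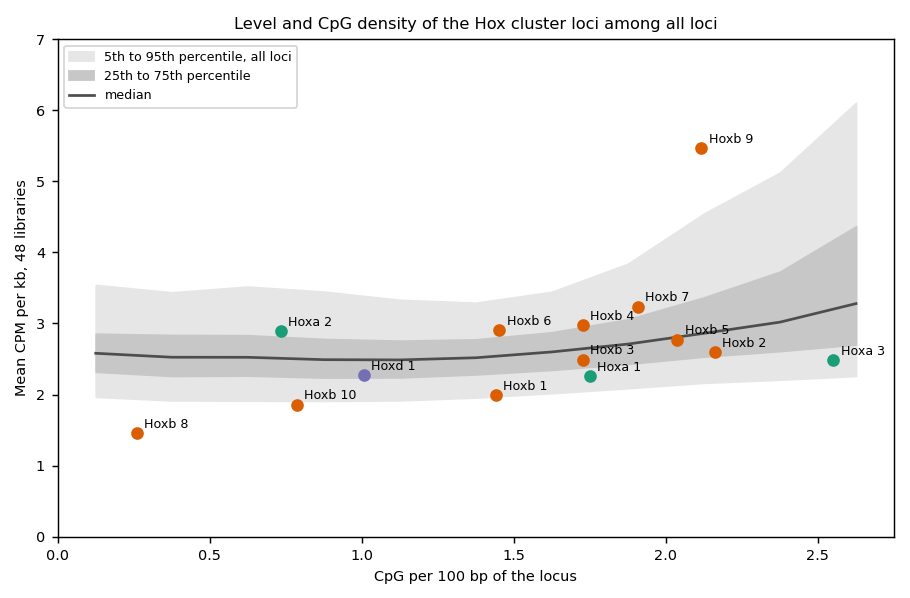
Mean level over 48 libraries (y axis, CPM per kb) against CpG per 100 bp of the locus (x axis) for the 14 Hox cluster loci, over the bands in which all loci fall. Hoxb locus 9 lies above the 95th percentile of its density, and Hoxb loci 8 and 10 lie below the 5th.

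Summed over the loci of a cluster and divided by their length, Hoxb had 2.92 ± 0.281, Hoxa 2.49 ± 0.443 and Hoxd 2.27 ± 0.861 CPM per kb (mean ± SD, n = 48 libraries). Hoxb was above Hoxa in 36 of 48 libraries and above Hoxd in 39, and Hoxa was above Hoxd in 31. Without Hoxb locus 9 the level of Hoxb was 2.56 ± 0.315 CPM per kb, and it was above Hoxa in 23 of 48 libraries, so the order of these neighbours rested on that locus. The 9 loci between Hoxb13 and Hoxb9 gave 73.4% of the CPM of all 14 loci on average, with a range of 67.1 to 80.1% over libraries.

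The sums over the loci of a cluster overlapped among the 6 groups. The Hoxb sum of the C groups was 31.9 ± 3.50 CPM for Tph2+/+, 31.7 ± 3.37 for Tph2+/- and 32.01 ± 4.03 for Tph2-/- (mean ± SD, n = 8). That of the MS groups was 32.95 ± 3.23 CPM for Tph2+/+, 32.3 ± 2.01 for Tph2+/- and 33.6 ± 2.83 for Tph2-/-. For Hoxa the lowest group mean was 7.31 ± 1.41 CPM, that of Tph2-/- MS, and the highest was 8.78 ± 1.61 CPM, that of Tph2+/+ C. For Hoxd, with its single locus, the lowest was 1.30 ± 0.334 CPM, that of Tph2+/- C, and the highest was 1.93 ± 0.933 CPM, that of Tph2-/- MS.

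**Figure D4:**
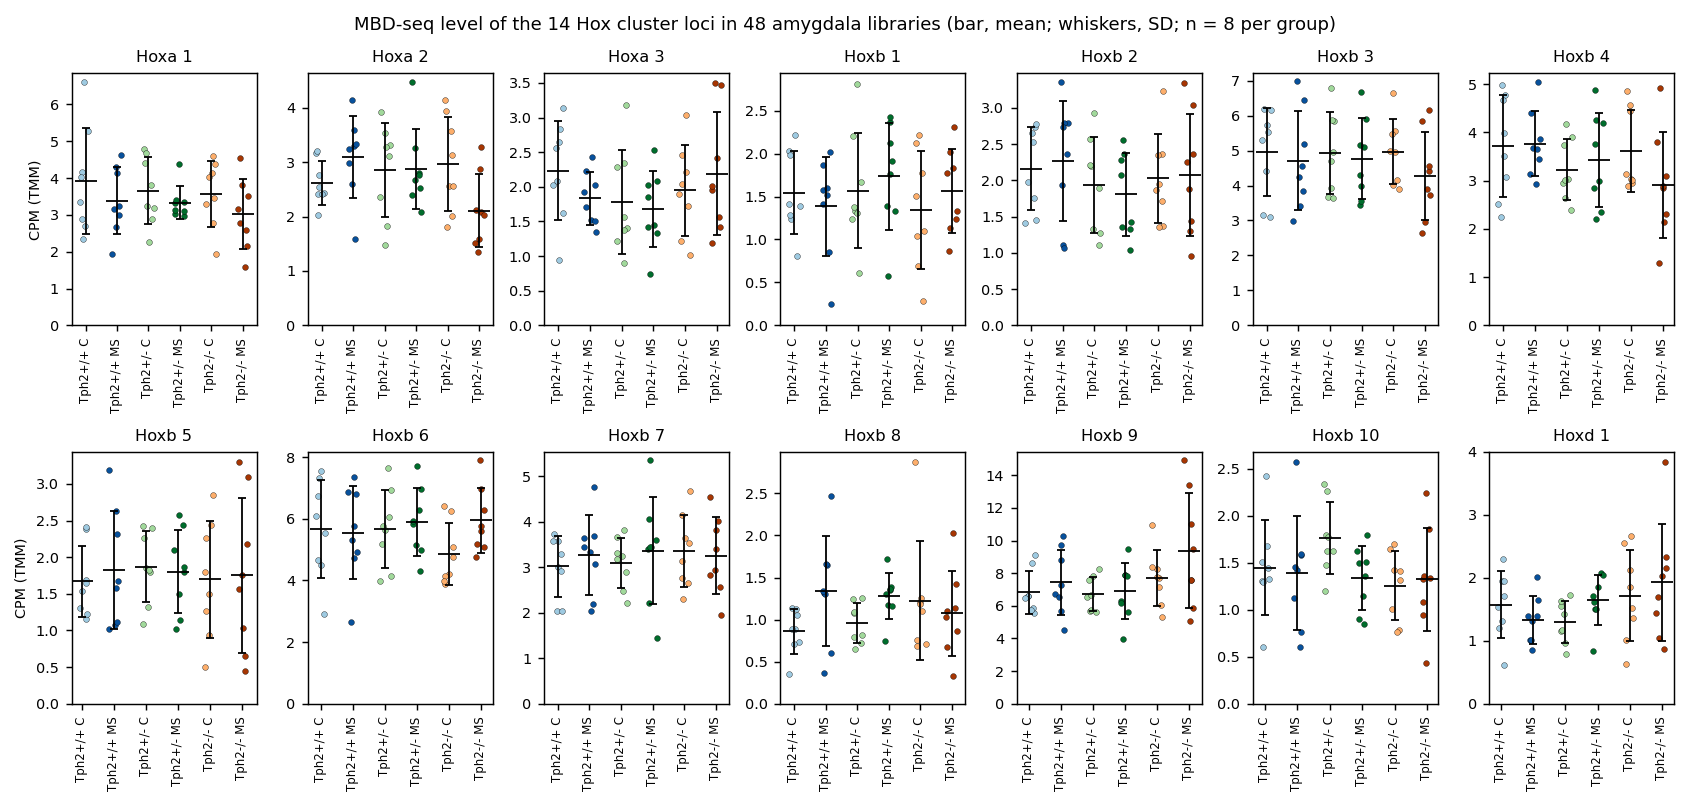
Level of each of the 14 loci (y axis, CPM) in the 48 libraries by group, with the mean and SD of each group of 8. In every panel the groups overlap, and the widest spread is in Hoxb locus 9 in Tph2-/- MS, from 5.08 to 14.9 CPM.

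Sample numbers in the labels formed runs that each held a single condition, S1 to S17 and S42 to S48 for C and S18 to S41 for MS, so run and MS cannot be told apart. The labels show no break between S26 and S27. S18 to S26 were set apart for their values, seen in earlier work on these data, and are described here for that reason. On average these libraries favoured loci dense in CpG, with a slope of log2 level on CpG density of 0.117 ± 0.117 (SD, n = 9). The means were -0.0489 to -0.0206 in S1 to S17, S27 to S41 and S42 to S48. Single libraries of S18 to S26 ran from -0.0514 to 0.342, and the highest of S27 to S41 had 0.117, so the sets overlapped. Hoxb locus 9 was at 9.84 ± 2.70 CPM in S18 to S26 and at means of 6.48 to 7.33 CPM in the other 3 sets. Its 2 highest values, 14.9 and 13.4 CPM, were both in Tph2-/- MS libraries of this set, and the library with 13.4 CPM (replicate 3) was not in the fit described next. The part of the capture in this was not tested.

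The effect of MS was compared first, over all genotypes and then in each. Differences are log2 fold changes from a fit of all loci in 46 libraries, without the pair of Tph2-/- MS libraries with the lowest totals (replicates 3 and 7), and a call means an unadjusted p under 0.01 with a log2 fold change beyond 0.2. No Hox cluster locus was called for MS over genotypes, where 3.63% of all loci were called, and none had an unadjusted p under 0.05, against 12.2% of all loci. Without S18 to S26, 1.26% of all loci were called and 5.75% had an unadjusted p under 0.05, while again no member had either. That setting also had fewer MS libraries, so lost power and the values of S18 to S26 cannot be told apart in these lower shares. In the fit to 46 libraries the 14 log2 fold changes ran from -0.20 to 0.32 with a median of 0.04. The median over all loci was 0.0017, and 8 of the 14 were above 0. The smallest p was that of Hoxa locus 1. Among Tph2+/+ mice it had 2.35 to 6.60 CPM with a median of 3.69 in C and 1.95 to 4.61 with a median of 3.205 in MS. In Tph2+/- it had 2.26 to 4.78 with a median of 3.52 in C and 2.96 to 4.39 with a median of 3.23 in MS, and in Tph2-/- 1.94 to 4.59 with a median of 3.74 in C and 1.58 to 4.55 with a median of 2.98 in MS. MS medians were below C medians in all 3 genotypes and the ranges overlapped. The log2 fold change of the locus was -0.20 (SE 0.11, adjusted p = 0.471). With a covariate for the late controls S42 to S48 it was -0.12 (SE 0.12, adjusted p = 0.802). The main adjusted p was the smallest of all 14 loci in all 8 comparisons.

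Within Tph2+/+, no Hox cluster locus was called for MS (1.31% of all loci) and 1 had an unadjusted p under 0.05 (6.52% of all loci). It was Hoxb locus 8, the TG repeat, which had 0.347 to 1.14 CPM with a median of 0.883 in C and 0.365 to 2.47 with a median of 1.33 in MS. The upper MS libraries were above all C libraries, while the lower ones lay among them. The log2 fold change was 0.64 (SE 0.32, adjusted p = 0.764), and without libraries S18 to S26 it was 0.51 (SE 0.37). Its counts were the lowest of the members, 12.3 on average.

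Within Tph2+/-, no member was called (0.779% of all loci) and none had an unadjusted p under 0.05 (4.36% of all loci). Hoxb locus 10, at the 3′ end of Hoxb5, had the smallest p. It had 1.20 to 2.34 CPM with a median of 1.70 in C and 0.845 to 1.79 with a median of 1.43 in MS, and the ranges overlapped. The log2 fold change was -0.40 (SE 0.26, adjusted p = 1.0).

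Within Tph2-/-, no member was called (1.48% of all loci) and none had an unadjusted p under 0.05 (7.11% of all loci). Hoxb locus 6, between Hoxb13 and Hoxb9, had 3.90 to 6.43 CPM with a median of 4.49 in C and 4.76 to 7.92 with a median of 5.68 in MS. The C libraries reached lower and the MS libraries higher, and the ranges overlapped. The log2 fold change was 0.31 (SE 0.17, adjusted p = 0.728), and without libraries S18 to S26 it was 0.46 (SE 0.19, adjusted p = 0.862). That setting left only replicates 5, 6 and 8 in the Tph2-/- MS group, so its values for this group rest on few libraries. Hoxb locus 9 at the pseudogene had 5.31 to 10.98 CPM with a median of 7.72 in C and 5.08 to 14.9 with a median of 8.56 in MS. The log2 fold change of the locus was 0.13 (SE 0.17, adjusted p = 0.902), and without libraries S18 to S26 it was -0.33 (SE 0.19, adjusted p = 0.910), while the other alternatives gave 0.0063 to 0.26.

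**Figure D5:**
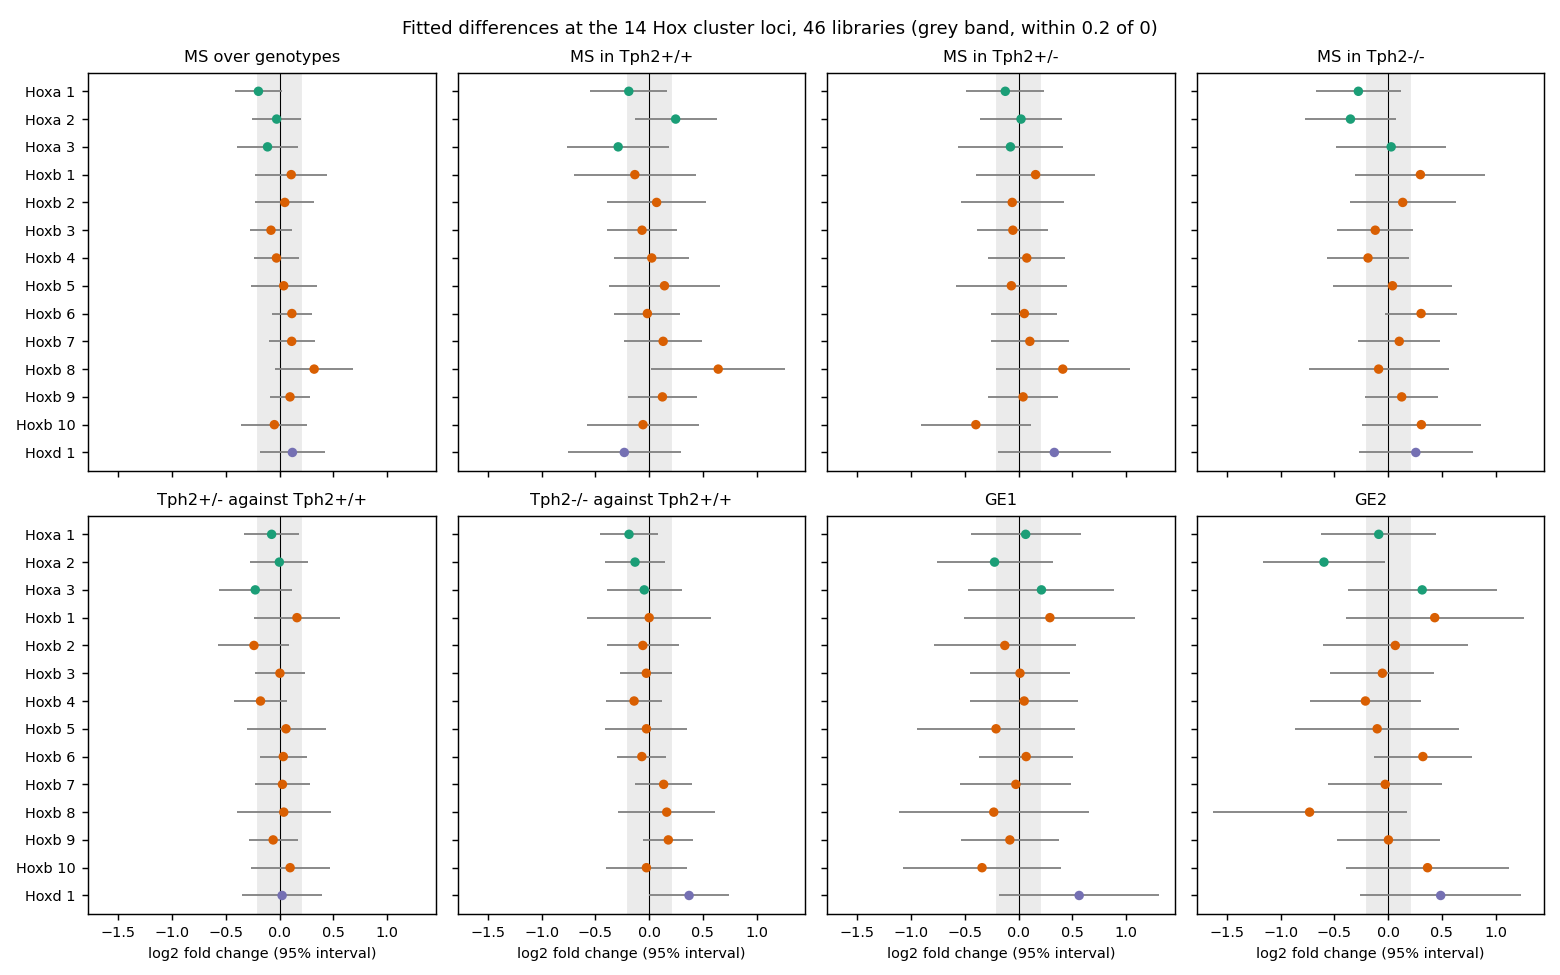
Log2 fold changes (x axis) of the 14 loci (y axis) in the 8 comparisons with approximate 95% intervals from the fit to 46 libraries. The interval leaves out 0 for Hoxb locus 8 in MS in Tph2+/+ and for Hoxa locus 2 in GE2, and no locus was past the limits.

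The Tph2 genotypes were compared over both rearing conditions. For Tph2-/- against Tph2+/+ no Hox cluster locus was called (0.748% of all loci) and none had an unadjusted p under 0.05 (4.08% of all loci). The smallest p was that of Hoxd locus 1, in the intron of Hoxd3 and Hoxd4, whose products act in the hindbrain and neck region of the embryo. Among Tph2+/+ mice it had 0.608 to 2.30 CPM with a median of 1.63 in C and 0.851 to 2.01 with a median of 1.36 in MS. In Tph2-/- it had 0.627 to 2.66 with a median of 1.69 in C and 0.866 to 3.84 with a median of 1.86 in MS. The Tph2-/- medians were above those of Tph2+/+ and the ranges overlapped. The log2 fold change was 0.37 (SE 0.19, adjusted p = 1.0), with an interval from -0.0025 to 0.75.

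For Tph2+/- against Tph2+/+ no member was called (0.546% of all loci) and none had an unadjusted p under 0.05 (3.47% of all loci). The smallest p was that of Hoxb locus 2, with its CA repeat. Among Tph2+/+ mice it had 1.42 to 2.78 CPM with a median of 2.25 in C and 1.07 to 3.36 with a median of 2.55 in MS. Among Tph2+/- mice it had 1.10 to 2.94 with a median of 2.05 in C and 1.05 to 2.56 with a median of 1.75 in MS. The groups overlapped, and the log2 fold change was -0.24 (SE 0.17, adjusted p = 1.0).

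The interaction of genotype and MS was tested as the MS effect in Tph2+/- minus that in Tph2+/+ (GE1) and the MS effect in Tph2-/- minus that in Tph2+/+ (GE2). In GE1 no member was called (0.626% of all loci) and none had an unadjusted p under 0.05 (3.71% of all loci). Hoxd locus 1 had the smallest p, with MS effects of -0.23 in Tph2+/+ and 0.33 in Tph2+/- and a difference of 0.56 (SE 0.38, adjusted p = 1.0), which was 0.78 (SE 0.43, adjusted p = 1.0) without S18 to S26. Its level in Tph2+/- was 0.785 to 1.72 CPM with a median of 1.30 in C and 0.829 to 2.08 with a median of 1.67 in MS.

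In GE2 no member was called (0.558% of all loci) and 1 had an unadjusted p under 0.05 (3.36% of all loci). It was Hoxa locus 2, the highest of Hoxa in CPM per kb. In Tph2+/+ it had 2.04 to 3.21 CPM with a median of 2.48 in C and 1.58 to 4.15 with a median of 3.27 in MS. In Tph2-/- it had 1.80 to 4.13 with a median of 2.85 in C and 1.34 to 3.28 with a median of 2.06 in MS. The medians thus lay in opposite order in the 2 genotypes, and within each genotype the ranges overlapped. The MS effects were 0.25 (SE 0.19) in Tph2+/+ and -0.35 (SE 0.21) in Tph2-/-, and their difference was -0.60 (SE 0.29, adjusted p = 1.0). When Tph2-/- MS replicates 2 and 3 were left out in place of 3 and 7, the difference was -0.78 (SE 0.29, adjusted p = 1.0), which is past the limits. Replicate 7 had 8.23 Mcounts and a slope on CpG density of 0.117, replicate 3 had 8.09 Mcounts and 0.342, and replicate 2 had 11.07 Mcounts and 0.238, so by the slope replicates 2 and 3 stood further apart from the other libraries of the group than replicate 7. No other locus in any comparison was called under any of the 9 alternatives.

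Standard errors set what could be seen. The median SE of the 14 log2 fold changes was 0.13 for MS over genotypes, 0.21 to 0.23 for MS within a genotype, 0.15 to 0.16 for the genotype comparisons and 0.31 to 0.32 for the interactions. The approximate 95% intervals of all members lay between -0.41 and 0.69 for MS over genotypes and between -1.63 and 1.26 for GE2, and those of single members were narrower. By the DESeq2 Wald test no member was called in any comparison either, and 3 of the 112 values had an unadjusted p under 0.05, against 2 in edgeR.

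The partners and regulators of Hox proteins were covered by more loci than the clusters. Of 57 genes in 4 lists, 37 had a locus, with 231 loci in all. For MS over genotypes 9 of these were called (3.90%, against 3.63% of all loci), 5 higher and 4 lower, where 2.28% of all loci were called higher and 1.35% lower. Without S18 to S26, and so with fewer MS libraries, 3 of the 231 were called (1.30%, against 1.26% of all loci), 2 higher and 1 lower. Of these 3, 2 were among the 9. Over all loci the balance turned to 0.517% higher and 0.748% lower. In the other comparisons 1 or 2 of the 231 were called, 0.433 to 0.866%, where 0.546 to 1.48% of all loci were called, so these counts were near the share over all loci. In the main fit the smallest adjusted p of these loci was 0.0988. By the DESeq2 Wald test for MS over genotypes it was 0.0264, in Cbx2, and a locus in Aldh1a1 had 0.0495. By default that test leaves loci with low mean counts out of the adjustment. Called loci in Pbx3, Meis1, Rarg, Cyp26c1 and Dlx3 had no adjusted p in it. The unadjusted p of the Cbx2 locus was 0.000133 by DESeq2 and 0.000114 in the main edgeR fit. By DESeq2 1226 loci had an adjusted p under 0.05, against 24 in the main fit. The adjustments covered different sets of loci, so these values are not directly comparable.

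The TALE homeodomain cofactors, which bind DNA together with Hox proteins, had 64 loci in 8 of 9 genes. For MS over genotypes 4 of them were called lower and none higher, where 1.35% of all loci were called lower and 2.28% higher. These were 2 loci in Pbx3 with log2 fold changes of -0.52 (adjusted p = 0.130) and -0.39 (adjusted p = 0.264) and 2 in Meis1 with -0.50 (adjusted p = 0.165) and -0.39 (adjusted p = 0.177). The Polycomb and Trithorax genes, which keep Hox genes silent or active, had 67 loci in 15 of 20 genes. Of these, 1 locus was called for MS over genotypes, in Cbx2, a Polycomb subunit, with 0.32 (adjusted p = 0.0988). The retinoic acid and caudal regulators had 97 loci in 12 of 16 genes, and 3 were called higher. They were in Rarg, a retinoic acid receptor, with 0.39 (adjusted p = 0.136), in Cyp26c1, which degrades retinoic acid, with 0.35 (adjusted p = 0.158), and in Aldh1a1, which makes it, with 0.36 (adjusted p = 0.255). Of 12 ParaHox and related homeobox genes, Dlx3 and Dlx4 had 3 loci in all, and 1 of those in Dlx3 was called higher with 0.29 (adjusted p = 0.234). Without S18 to S26 the loci that were still called were the first of Meis1, with -0.52 (adjusted p = 0.714), and that of Rarg, with 0.49 (adjusted p = 0.2999). A locus in Cdx1, a caudal factor, was called as well, with 0.38 (adjusted p = 0.775). The loci no longer called had -0.34 and -0.24 in Pbx3, -0.20 in the second of Meis1 and 0.23 in Cyp26c1. Cbx2 had 0.14, Aldh1a1 0.018 and Dlx3 0.051. With the covariate for S42 to S48, 4 of the 9 were called, and Rarg, with 0.29, was not. With an offset on CpG density 6 of the 9 were called.

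For MS in Tph2+/+ both called loci were higher, 1 in Cbx2 with 0.58 (adjusted p = 0.755) and 1 in Aldh1a3, which makes retinoic acid, with 0.48 (adjusted p = 0.749). For MS in Tph2-/- both were higher too, 1 in Pbx3 with 0.63 and 1 in Cbx2 with 0.43 (adjusted p = 0.655 for each). For MS in Tph2+/- the called locus was in Rarb, a retinoic acid receptor, with -0.63 (adjusted p = 1.0). For Tph2-/- against Tph2+/+ it was in Meis1 with 0.35 (adjusted p = 1.0). For Tph2+/- against Tph2+/+ 1 locus in Ezh1, a Polycomb enzyme, had 0.55 and 1 in Rarg had -0.53 (adjusted p = 1.0 for each).

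In GE2 the called loci of these lists were 1 in Pbx3 with 0.91 (adjusted p = 1.0) and 1 in Rarb with 1.46 (adjusted p = 1.0). In GE1 the called loci were 1 in Pknox1, a cofactor, with 1.02 (adjusted p = 1.0) and 1 in Cbx2 with -0.80 (adjusted p = 1.0). The Pbx3 locus in GE2 was that called for MS in Tph2-/-, and the Cbx2 locus in GE1 that called for MS in Tph2+/+. These comparisons share libraries, so the values are not independent.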

How the data were processed

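Genomic DNA of the amygdala of 48 male mice was sheared by sonication, and fragments bound by a protein domain that recognises methylated CpG were sequenced as pairs of 50 bp reads. The authors mapped the reads with Bowtie2 2.1.0 to GRCm38, called peaks with MACS, merged them over libraries and counted reads per merged peak with DiffBind 2.0.9. The deposited values are raw read counts per locus, and how duplicate reads and reads with several matches were treated is not given in the sources used here. Totals were 7.72 to 14.1 Mcounts per library, so that a Hox cluster locus had 12.3 to 79.8 counts on average. Capture depends on CpG density and on copies of a sequence, so a count is not a methylation level.

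Loci overlapping the 4 Hox windows were annotated with GENCODE vM21 and the GRCm38.p6 sequence. Copies of each 50-base stretch were counted as exact matches on both strands of the assembled chromosomes. All 187695 loci entered a robust quasi-likelihood fit in edgeR (version 4.0.16, R 4.3.3) after TMM normalisation, with 1 term per group, and p-values were adjusted over all loci by the Benjamini-Hochberg method. The study excluded a pair of Tph2-/- MS libraries, not named, for few counts and a shifted signal density. Here the pair with the smallest totals, replicates 3 and 7, was excluded, which left 46 libraries. Levels describe all 48 libraries. The limits of the study were used, a log2 fold change beyond 0.2 at an unadjusted p under 0.01. Intervals are the log2 fold change ± 1.96 SE. The fit was tested on simulated counts. DESeq2 1.42.0 was one of 9 alternatives.

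Loci were named by a rule: in each cluster the 3 with the highest and the 1 with the lowest CPM per kb, and for each comparison the locus with the smallest p where none passed. Hoxb locus 9 was also described in comparisons outside the rule, after its values were seen. No locus met the third part of the rule, an overlap with a microRNA gene or a Hox start within 250 bp. The members, the gene lists and the tests were chosen with earlier results of these data known. A gene and a stretch of sequence in the windows are not reported here.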

Additional observations from a re-analysis of the deposited data

Results flagged for a closer look

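Of the 84 sets of 8 libraries (14 loci in 6 groups), 3 held a library that stood apart from the rest by Dixon's criterion, where chance gives about 1 in 20. Hoxb locus 8, the TG repeat, had 2.87 CPM (40 counts) in Tph2-/- C replicate 1, and the next highest library of the group had 1.25 CPM. Hoxa locus 1 had 4.39 CPM in Tph2+/- MS replicate 8, and the next highest had 3.39 CPM. Hoxd locus 1, in the intron of Hoxd3 and Hoxd4, had 0.829 CPM (10 counts) in Tph2+/- MS replicate 4, and the next lowest had 1.51 CPM.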

How the results depend on the processing

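The number of Hox cluster loci past the limits was 0 in all 8 comparisons under each of the 9 alternative fits, except that it was 1 in GE2 without Tph2-/- MS replicates 2 and 3 in place of the 2 lowest totals. That locus was Hoxa locus 2, with a log2 fold change of -0.78 against -0.60. Its lowest value in Tph2-/- MS, 1.34 CPM, was in replicate 7, and its highest, 3.28 CPM, was in replicate 2. This alternative thus left out the highest value of the group and held the lowest, and the main fit did the reverse. The cause of these values was not tested. Hoxa locus 2 had -0.71 (SE 0.28) with all 48 libraries and -0.54 (SE 0.29) with an offset on CpG density. The locus with the smallest p in each comparison kept its direction under all 9 alternatives. These loci were picked by p in the same data and the alternatives refit most of the same counts, so this is no independent support. Over all loci the number past the limits for MS over genotypes was 6816, of which 4284 were higher, and it was 10861 with all 48 libraries, 4480 with the covariate for S42 to S48 and 2374 without S18 to S26, of which 970 were higher. For MS in Tph2-/- it was 2769 (1582 higher), against 10088 (7857 higher) with all 48 libraries, 1605 (721 higher) without replicates 2 and 3, and 2221 (847 higher) without S18 to S26. For GE2 it was 1048, against 1604 without S18 to S26. Without S18 to S26 the Tph2-/- MS group held only replicates 5, 6 and 8. Of the partner loci, 3 to 16 were called for MS over genotypes, against 9. The cluster sums moved by less than 1 SD with DESeq2 size factors. Keeping only loci whose midpoint lay inside the window left out no locus, so the sums were unchanged and this tested nothing.

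Replicate numbers showed no general pairing of the samples. Within a group they rise with the sample number. The correlation of deviations from the group means was -0.150 to 0.244 over 120 same-numbered pairs, with a median of 0.0149 against -0.0014 for other pairs. The medians were highest between Tph2+/+ MS and Tph2-/- MS, 0.131, where 4 of 8 libraries correlated best with their own number, and the lowest pair there was at -0.142. The part of nearness in sample number in this was not tested. With the replicate block, 0 loci were past the limits in any comparison. Depth limits these results, since a locus with 12.3 counts on average resolves only large differences.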
